A study of Mus musculus with 11 samples.

Results

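The macrophage genes described here are 4 pan-macrophage genes (Adgre1, Cd68, Csf1r and Lyz2) and 6 genes used as markers of tissue-resident macrophages (Mrc1, Cd163, Lyve1, Folr2, Clec10a and Retnla). They were chosen by name, with earlier results of these data known, and 9 of the 10 are among the 12787 genes of the deposited table. Retnla is not listed there and was not analysed here. RNA came from the gonadal white adipose tissue (WAT) of male C57BL/6J mice kept for 20 weeks on a high fat diet (HFD) with 60% fat. The 5 control mice received the HFD alone, labelled as vehicle, and the 6 treated mice received the HFD with 0.06% w/w iodomethylcholine (IMC), an inhibitor of the gut bacterial enzyme that makes trimethylamine from choline. Each mouse gave 1 library of mRNA, and both groups shared strain, sex, diet and time on diet. The labels give no age for the sequenced mice. The question of the comparison was how gene expression in WAT differs when this bacterial enzyme is inhibited during diet-induced obesity.

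All values are log2 CPM, the base 2 logarithm of reads scaled by the size of the library (CPM), so that a difference of 1 is a doubling. The libraries held between 22320022 and 25155366 reads on listed genes, and the members had between 423 reads (Lyve1) and 108644 reads (Lyz2) in a mouse. Checked against the tissue label, all 10 adipocyte markers were listed, and none of 8 genes of the neighboring epididymis was. The 10 adipocyte genes summed to between 9800 and 14008 CPM in HFD mice and between 19395 and 23795 CPM in IMC mice, so fat cell genes moved with the groups, and their part in the results was not tested. In whole tissue, fewer macrophages and less RNA per macrophage cannot be told apart.

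Macrophages are the main immune cells of WAT. Those that live in lean fat near vessels and clear debris carry scavenger and lectin receptors such as the proteins of Mrc1, Cd163, Lyve1, Folr2 and Clec10a. In obesity, monocytes from blood enter the tissue, become macrophages and take up lipid from fat cells. Pan-macrophage genes are read in both kinds of cell, and both depend on the receptor encoded by Csf1r.

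Promoter sequences are shown for the listed members that bear the core site of PU.1, the factor encoded by Spi1 that macrophages need, because they come from both classes (Lyz2, Mrc1 and Folr2). RefSeq (GRCm38.p6, the same build as mm10) gave promoter windows for 6 of the 10 members, and the 250 bases before the start site were searched on both strands for AGGAAGT. This core was found before 4 of these 6 genes (Lyz2, Mrc1, Folr2 and Retnla) and in 7.69% of 32851 promoter windows of the same length. The sequences run 5′ to 3′ on the strand of the gene, capitals mark the PU.1 core in either orientation, and bases inside the annotated gene were left out. Lyz2 lies on the minus strand (chr10:117282322-117282522), as does its neighbor Lyz1 (chr10:117292869-117293118), which is shown because its transcript resembles that of Lyz2. Mrc1 lies on the plus strand (chr2:14229164-14229391), and the upstream start of Folr2 lies on the minus strand (chr7:101857195-101857440).
Lyz2: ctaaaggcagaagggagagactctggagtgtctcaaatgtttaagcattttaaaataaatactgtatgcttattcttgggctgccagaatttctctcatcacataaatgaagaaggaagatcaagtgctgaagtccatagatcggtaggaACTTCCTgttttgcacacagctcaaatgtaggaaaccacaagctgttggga
Lyz1: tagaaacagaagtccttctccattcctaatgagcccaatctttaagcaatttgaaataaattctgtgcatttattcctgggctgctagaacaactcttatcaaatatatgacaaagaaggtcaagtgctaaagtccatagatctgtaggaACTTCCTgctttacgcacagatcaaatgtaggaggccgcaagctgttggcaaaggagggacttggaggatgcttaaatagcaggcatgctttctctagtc
Mrc1: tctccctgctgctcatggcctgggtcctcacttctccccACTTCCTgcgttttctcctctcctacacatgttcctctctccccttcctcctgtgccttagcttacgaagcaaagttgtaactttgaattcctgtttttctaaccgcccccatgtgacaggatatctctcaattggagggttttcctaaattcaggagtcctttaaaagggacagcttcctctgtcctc
Folr2: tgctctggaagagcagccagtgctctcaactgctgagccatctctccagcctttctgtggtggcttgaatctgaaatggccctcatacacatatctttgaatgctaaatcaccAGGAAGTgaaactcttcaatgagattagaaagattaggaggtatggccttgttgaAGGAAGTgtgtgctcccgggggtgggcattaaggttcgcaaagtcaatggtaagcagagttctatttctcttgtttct
Distances are counted from the RefSeq starts. Because bases inside the annotated gene were left out, the printed sequences of Lyz2, Mrc1 and Folr2 end 49, 22 and 4 bases before these starts. The core begins 100 bases before the start of both Lyz2 and Lyz1, 211 bases before that of Mrc1, and 137 and 82 bases before the upstream start of Folr2. The windows of Lyz2 and Lyz1 had the same base at 152 of 250 positions (60.8%) when set side by side without gaps. AP-1 sites (TGANTCA) were found before Cd68, 149 and 24 bases from its start, and before a second start of Folr2, and occur in 6.75% of all windows. MAF half-sites (TGCTGA, in 16.1% of windows) were found before Folr2, Lyz2 and Retnla, and a TATAAA box (in 12.4% of windows) before Retnla only. Cd163 had none of the 4 motifs in its window. These are matches of letters and do not show binding.

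Among the pan-macrophage genes, all 4 were lower in IMC mice by limma with Benjamini-Hochberg adjustment over all genes, with a median log2 fold change of -0.59. In the same fit 21.0% of all genes tested were lower, 20% were higher, and the median of all genes was -0.03. The 4 genes were at 0.612 (Lyz2) to 0.802 (Csf1r) times the HFD level. No overlap between the groups was seen for Adgre1 and Cd68, a pattern in the lower direction found for 10.5% of all genes, while in each of Csf1r and Lyz2 1 IMC mouse lay within the HFD range.

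Adgre1 encodes F4/80, a surface receptor used to stain mouse macrophages, and lies on chromosome 17 from 57358691 to 57483527 of GRCm38. Its log2 CPM was 9.77, 9.65, 10.07, 10.04 and 9.51 in HFD mice 1 to 5, and in the 6 IMC mice it ranged from 8.84 to 9.50 with a median of 9.28. The groups did not overlap, but the lowest HFD mouse and the highest IMC mice were only 0.01 apart. The means were 9.81 ± 0.24 (SD, n = 5) and 9.23 ± 0.29 (SD, n = 6), and the log2 fold change of -0.58 (SE 0.14, 95% CI -0.88 to -0.27) was called by limma (adjusted p = 0.00593). Cd68, which encodes a glycoprotein of macrophage lysosomes (chromosome 11 from 69664213 to 69666153), had 10.37, 9.98, 10.25, 10.05 and 10.23 log2 CPM in the HFD mice and from 9.28 to 9.79 with a median of 9.61 in the IMC mice. Every IMC mouse was below every HFD mouse. Cd68 fell by 0.61 on the log2 scale (SE 0.10, 95% CI -0.82 to -0.39), with an adjusted p of 0.000492 by limma and an exact permutation p of 0.00216, the smallest that 5 mice against 6 allow.

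Csf1r encodes the receptor for the growth factors of the Csf1 and Il34 genes, on which macrophage survival depends, and lies on chromosome 18 from 61100598 to 61132149. Its log2 CPM was 9.74, 9.67, 9.98, 9.92 and 9.70 in HFD mice and from 9.21 to 9.69 with a median of 9.52 in IMC mice. Of the IMC mice, 5 of 6 were below the lowest HFD mouse. The log2 fold change of -0.32 (SE 0.09, 95% CI -0.52 to -0.11) had an adjusted p of 0.0167 by limma, and 873 exon bases of Csf1r are overlapped by Hmgxb3 on the other strand, whose reads could have been shared if strand was not used in counting. Lyz2 encodes lysozyme, the bacterial cell wall enzyme that myeloid cells secrete (chromosome 10 from 117277331 to 117282321). It had 12.26, 11.75, 11.79, 11.74 and 11.56 log2 CPM in HFD mice and between 10.69 and 11.58, with a median of 11.14, in IMC mice. HFD mouse 1 was the highest of all, and 5 of 6 IMC mice were below every HFD mouse. Lyz2 had the largest decrease of the members, a log2 fold change of -0.71 (SE 0.16, 95% CI -1.06 to -0.36, adjusted p = 0.00377 by limma).

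The paralog Lyz1 shares 16.1% of its 50-base stretches with Lyz2, and Lyz2 shares 15.4% with Lyz1, so some reads of the pair could have been exchanged or discarded. Lyz1 had 4.42 log2 CPM in HFD mice and 4.74 in IMC mice, a log2 fold change of 0.32 (95% CI -0.18 to 0.82) that limma did not call. Per kilobase of exon, Lyz1 was at 17.4 CPM and Lyz2 at 2784 CPM in HFD mice, so Lyz1 was far the lower of the pair.

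**Figure D1:**
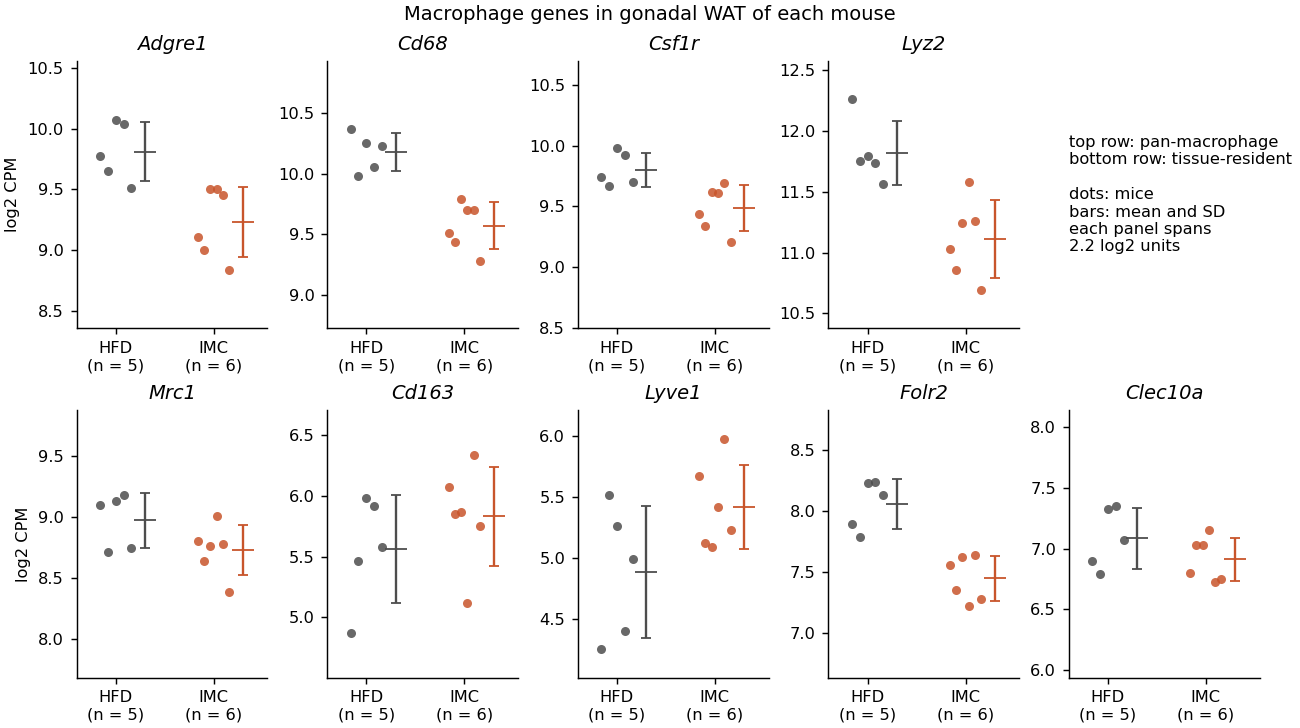
Log2 CPM of the 9 listed members in each mouse (dots), with the group mean and SD beside them (bars), for 5 HFD and 6 IMC mice. All panels span the same number of log2 units, and Adgre1, Cd68 and Folr2 are the genes in which the groups do not overlap.

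The resident markers did not move as 1 group. Of the 5 listed, Folr2 was lower in IMC mice, 4 were not called and 0 were called higher by limma, beside the 21.0% lower and 20% higher of all genes. At an unadjusted p under 0.05, 1 (Lyve1) was higher, and 0 were higher by limma voom on the recovered reads. Groups that did not overlap were found for Folr2 alone, and in the higher direction, where 12.5% of all genes had none, for 0 of the 5. Their log2 fold changes ran from -0.61 to 0.53 with a median of -0.17.

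Folr2 encodes folate receptor beta, which macrophages of many tissues carry, and lies on chromosome 7 from 101839988 to 101857194. It had 7.89, 7.79, 8.23, 8.24 and 8.13 log2 CPM in HFD mice and from 7.22 to 7.64 with a median of 7.45 in IMC mice. All IMC mice were below all HFD mice, as in Cd68. Its log2 fold change was -0.61 (SE 0.10, 95% CI -0.83 to -0.39, adjusted p = 0.000545 by limma), a level 0.654 times that of HFD mice. On the other strand, Gm10602 overlaps 975 exon bases of Folr2.

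Mrc1 encodes the mannose receptor CD206 (chromosome 2 from 14229392 to 14332057). Its log2 CPM in HFD mice was 9.10, 8.71, 9.13, 9.18 and 8.75, and the IMC mice ranged from 8.38 to 9.01 with a median of 8.77. The groups overlapped widely, with 2 IMC mice below the lowest HFD mouse. The difference of -0.24 (SE 0.11, 95% CI -0.49 to 0.00) was not called (adjusted p = 0.103 by limma), but without HFD mouse 2 it was -0.31 with an adjusted p of 0.0484 by limma and without IMC mouse 4 it was -0.30 with an adjusted p of 0.0443. Clec10a encodes a galactose-binding lectin (chromosome 11 from 70156197 to 70170834) and had 6.90, 6.79, 7.33, 7.35 and 7.07 log2 CPM in HFD mice against a range of 6.73 to 7.15 and a median of 6.91 in IMC mice. Those values overlapped, and the difference of -0.17 (95% CI -0.41 to 0.07, adjusted p = 0.237 by limma) was within the spread between mice.

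Directly beside Clec10a lies Mgl2 (from 70130329 to 70137550), a lectin gene of the same family. Of the 50-base stretches of Clec10a, 10.6% occur in Mgl2, and 15.3% of those of Mgl2 occur in Clec10a. Some reads of this pair could therefore have been exchanged or discarded. Mgl2 had 3.38 ± 0.29 log2 CPM (SD, n = 5) in HFD mice and 4.46 ± 0.44 (SD, n = 6) in IMC mice. Unlike Clec10a it rose, by 1.09 on the log2 scale (SE 0.20, 95% CI 0.66 to 1.51, adjusted p = 0.000929 by limma), and all 6 IMC mice were above the HFD mean. The groups overlapped slightly, since IMC mouse 6 (3.79) was below HFD mouse 3 (3.82). Of the genes related to Retnla, Retn, which encodes the fat cell hormone resistin, rose from 6.45 to 7.28 log2 CPM (log2 fold change 0.83, adjusted p = 0.0221 by limma). Retn is a fat cell gene and says nothing of Retnla, and Retnlg was not listed.

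Cd163 encodes the scavenger receptor for haptoglobin bound to hemoglobin (chromosome 6 from 124304656 to 124330527). HFD mice had 4.87, 5.46, 5.98, 5.92 and 5.58 log2 CPM, and IMC mice from 5.12 to 6.34 with a median of 5.86. HFD mouse 1 was the lowest of the 11. The difference of 0.27 (SE 0.21, 95% CI -0.19 to 0.73) was not called (adjusted p = 0.335 by limma). Lyve1 encodes a receptor for hyaluronan found on macrophages near vessels and on lymphatic endothelium (chromosome 7 from 110850607 to 110863239). Its log2 CPM was 4.25, 5.52, 5.26, 4.40 and 4.99 in HFD mice and from 5.09 to 5.98, with a median of 5.32, in IMC mice. All 6 IMC mice were above the HFD mean, but HFD mice 2 and 3 lay within the IMC range. Lyve1 had a difference of 0.53 (SE 0.23, 95% CI 0.05 to 1.02, adjusted p = 0.076 by limma). Without HFD mouse 2 it was 0.69 with an adjusted p of 0.0232 by limma, a call that was made only when this mouse was left out.

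Because Lyve1 is also read in lymphatic endothelium, other genes of that cell type are given beside it. Prox1, Ccl21a, Mmrn1 and Reln were not listed. Of the 3 other listed genes, Pdpn (log2 fold change -0.42, adjusted p = 0.016 by limma) and Nrp2 (-0.40, adjusted p = 0.00294 by limma) were lower. Flt4 was not called (0.33, adjusted p = 0.381 by limma), with 5 of 6 IMC mice above its HFD mean. The 3 summed to 213 to 288 CPM in HFD mice and 177 to 210 CPM in IMC mice. This sum mostly reflects Nrp2 (7.33 to 7.67 log2 CPM in HFD mice) and Pdpn (5.57 to 6.23). Flt4 was far lower (2.27 to 3.56), so the sum says little of it. The part of this cell type in the level of Lyve1 was not tested.

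**Figure D2:**
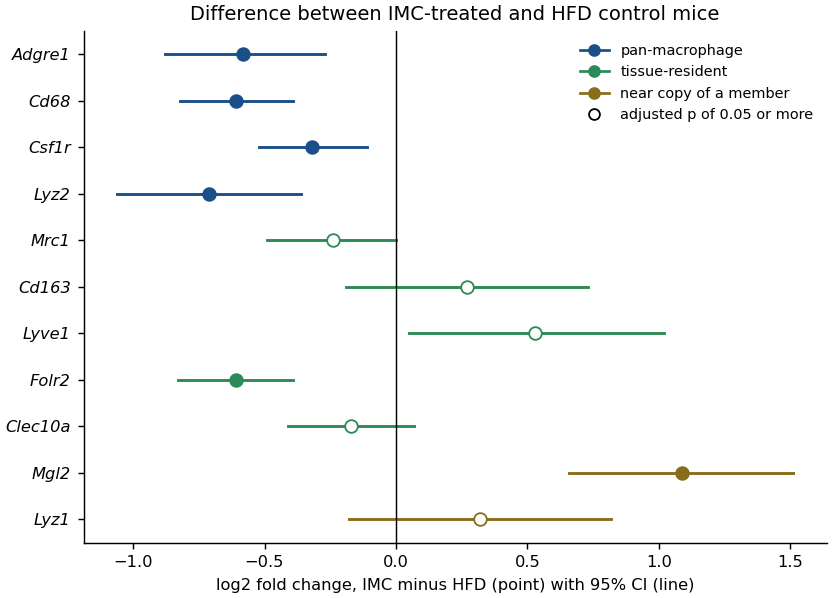
Log2 fold change of each member, IMC minus HFD (points), with its 95% CI (lines), for 5 HFD and 6 IMC mice, and the same for Mgl2 and Lyz1. Filled points had an adjusted p under 0.05 by limma: the 4 pan genes and Folr2 lie to the left of 0, and the other 4 resident markers have open points from -0.24 to 0.53.

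The genes of each class were also averaged in single mice. The mean of the centered log2 CPM of the 4 pan genes was 0.30 ± 0.14 (SD, n = 5) in HFD mice and -0.25 ± 0.24 (SD, n = 6) in IMC mice, without overlap. The same mean over the 5 resident genes was 0.02 ± 0.21 in HFD mice and -0.02 ± 0.15 in IMC mice. Resident minus pan gave -0.72, -0.20, -0.12, -0.21 and -0.13 in HFD mice 1 to 5 and 0.42, 0.35, 0.04, -0.10, 0.28 and 0.39 in IMC mice 1 to 6. The highest HFD mouse and IMC mouse 4 were only 0.02 apart, and HFD mouse 1 was far below the other HFD mice. These class means describe the mice and were not tested. Resident minus pan rises when the pan genes are lower, even if the resident genes do not change. The resident mean also joins changes in opposite directions, such as -0.61 for Folr2 and 0.53 for Lyve1. IMC mouse 6 was the lowest IMC mouse in each pan gene and in Mrc1.

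The resident markers were then set against Adgre1 in the same mouse, a ratio from which the scaling of the library cancels. Relative to Adgre1, 3 of the 5 were higher in IMC mice by limma (Cd163, Lyve1 and Clec10a) and 0 were lower, also 0 at an unadjusted p under 0.05. Since Adgre1 itself was lower, 69.3% of all genes rose in this ratio and 0.25% fell, so the share of resident markers was no higher than that of genes in general. The ratio of Lyve1 to Adgre1 was -4.92 ± 0.65 (SD, n = 5) on the log2 scale in HFD mice and -3.82 ± 0.38 (SD, n = 6) in IMC mice, a rise of 1.11 (SE 0.22, 95% CI 0.65 to 1.57, adjusted p = 0.000212 by limma). That of Cd163 rose from -4.25 ± 0.38 (SD, n = 5) to -3.40 ± 0.52 (SD, n = 6), by 0.85 (95% CI 0.42 to 1.27, adjusted p = 0.00148 by limma). For both genes the ranges of the groups still overlapped. Their exact permutation p, without adjustment, was 0.00866 for Lyve1 and 0.0216 for Cd163.

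Clec10a rose by 0.40 relative to Adgre1 (95% CI 0.07 to 0.74, adjusted p = 0.0312 by limma), but the call was lost in 7 of 11 fits that each left out a mouse (HFD mice 1 to 4 and IMC mice 1, 2 and 6). Its log2 ratio in those fits was 0.33 to 0.41. The ratio of Mrc1 to Adgre1 differed by 0.33 (95% CI 0.02 to 0.64, adjusted p = 0.0513 by limma), and passed without IMC mouse 3 (0.38, adjusted p = 0.0334) or IMC mouse 5 (0.36, adjusted p = 0.0492). By exact permutation, without adjustment, p was 0.0108 for Mrc1 and 0.0238 for Clec10a. The order of the resident markers in these ratios thus depended on the test. All genes in a ratio fit share the values of Adgre1, and limma moves the variance of each gene toward a common trend. The limma SE was 0.15 for Mrc1 (SDs 0.11 and 0.17) and 0.22 for Lyve1 (SDs 0.65 and 0.38). The limma p and CI of single ratios may therefore be too optimistic for variable genes such as Lyve1 and too cautious for Mrc1. Folr2 differed from Adgre1 by -0.04 with a 95% CI from -0.37 to 0.30. Within this interval Folr2 may have fallen by up to 0.37 more or 0.30 less than Adgre1 on the log2 scale.

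Other denominators gave different counts. Cd163 and Lyve1 were higher by limma against each of the 5 genes used (Adgre1, Cd68, Csf1r, Lyz2 and the leukocyte gene Ptprc). These denominators were themselves lower in IMC mice, and of all genes 83.4% rose relative to Cd68, 43.1% relative to Csf1r, 81.6% relative to Lyz2 and 65.9% relative to Ptprc, so a rise in these ratios was common. Mrc1 was higher against Cd68 (0.36, adjusted p = 0.00598 by limma) and Lyz2 (0.46, adjusted p = 0.0156 by limma). Against Csf1r, Clec10a was not called (0.14, adjusted p = 0.297 by limma) and Folr2 was lower (-0.29, adjusted p = 0.0302 by limma), as were 1.98% of all genes. Among the pan genes, Adgre1, Cd68 and Lyz2 were all lower relative to Csf1r. The differences were 0.26 (adjusted p = 0.0367 by limma) to 0.39 (adjusted p = 0.0262 by limma) on the log2 scale. Csf1r was also called higher relative to Cd68 (0.29, adjusted p = 0.0162 by limma) and Lyz2 (0.39, adjusted p = 0.0403 by limma). Relative to Adgre1, however, its difference of 0.26 was not called (95% CI -0.05 to 0.56, adjusted p = 0.116 by limma). The call between Adgre1 and Csf1r thus depended on which was the denominator. Relative to Ptprc, which encodes the CD45 antigen of all leukocytes, Adgre1 differed by -0.02 (95% CI -0.31 to 0.27) and none of the 4 pan genes was called.

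**Figure D3:**
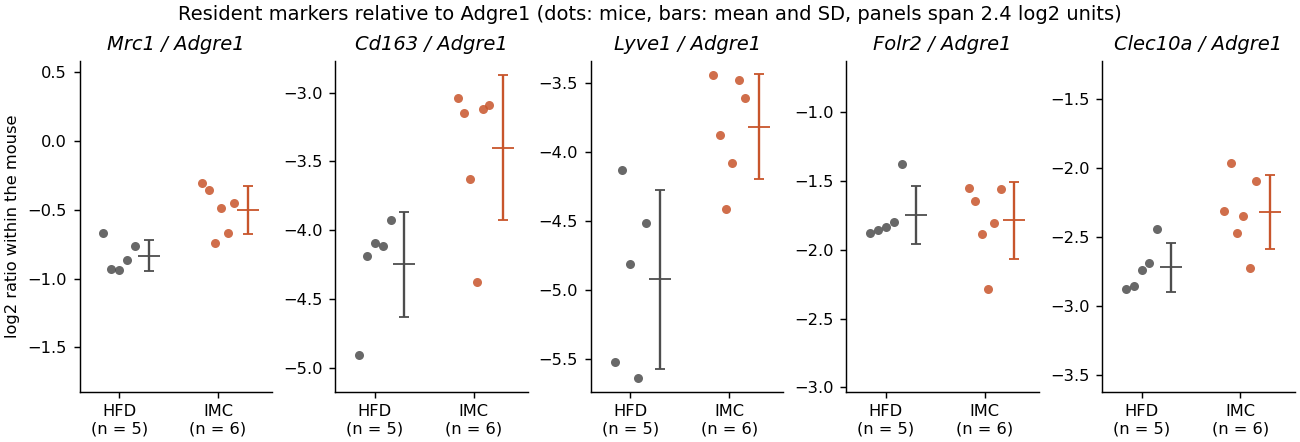
Log2 ratio of each resident marker to Adgre1 within a mouse (dots) with the group mean and SD (bars), for 5 HFD and 6 IMC mice, in panels that span the same number of log2 units. Cd163 and Lyve1 have the largest rises of the group means, 0.85 and 1.11, and Folr2 stays within 0.04.

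Levels of different genes were compared per kilobase of exon (CPM per kb). In HFD mice Lyz2 was the highest with 2784 ± 543 (SD, n = 5), followed by Cd68 with 925 ± 101 and Adgre1 with 280 ± 47.1. Folr2 (174 ± 23.9) and Csf1r (155 ± 15.3) came next and did not differ beyond the spread between mice. They were followed by Mrc1 (79.7 ± 12), Clec10a (47.5 ± 8.25), Lyve1 (10.7 ± 3.88) and Cd163 (8.96 ± 2.50), the last pair again within its spread. By this measure Folr2 was the resident marker nearest in level to the pan genes. All other neighbors in this order had ranges that did not overlap in HFD mice. The lengths cover all GENCODE exons of a gene (5774 bases for Csf1r, 1546 for Folr2), while reads were counted on UCSC transcripts. The order depends on these lengths, and before division by length Mrc1 (8.97 log2 CPM in HFD mice) was above Folr2 (8.06). In IMC mice Csf1r (125 ± 16, n = 6) stood above Folr2 (113 ± 14.4), with overlap, and Adgre1 (189 ± 36.6) overlapped with Csf1r.

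Within the groups, the pan genes varied together more closely than the resident markers. After each group mean was subtracted, the 6 pairs of pan genes had a median Pearson r of 0.67 (0.59 to 0.96) over the 11 mice. The 10 pairs of resident markers had a median of 0.21 (-0.33 to 0.80), and the 20 mixed pairs one of 0.26 (-0.52 to 0.83). Mrc1 followed Adgre1 (r = 0.83), while Lyve1 did not (r = 0.02), and Cd163 followed Folr2 (r = 0.80), although Folr2 was lower in IMC mice and Cd163 was not called. These values describe 11 mice whose libraries share their scaling, and no p was computed.

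**Figure D4:**
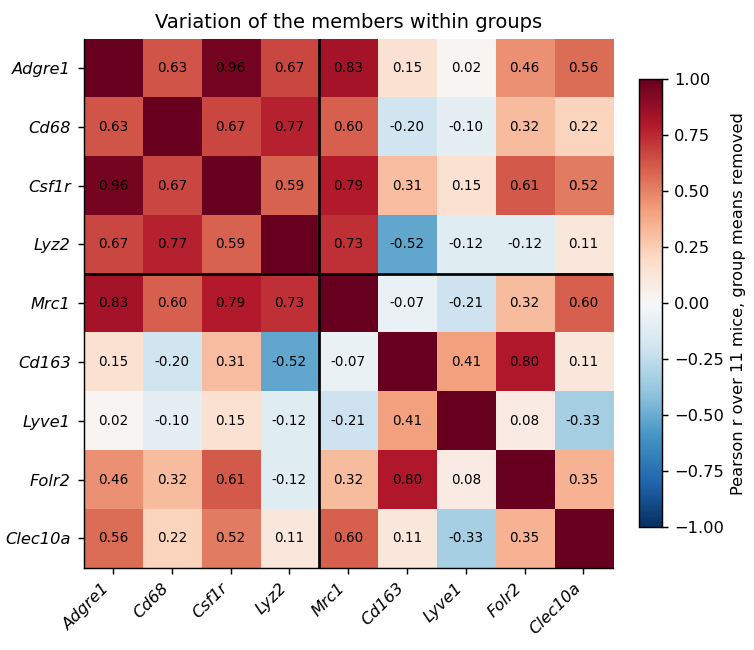
Pearson r between members over the 11 mice after the mean of each group was subtracted (color scale and printed values), with black lines between the 4 pan and the 5 resident genes. The pan block at the upper left holds values from 0.59 to 0.96, and the resident block at the lower right values from -0.33 to 0.80.

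By the same measure, the genes most like each member were also sought among all listed genes. Tlr8, an endosomal RNA receptor, was nearest to Adgre1 (r = 0.98), and Ctsz, a lysosomal protease, and Capg nearest to Cd68 (r = 0.98 and 0.97). Csf1r was nearest to Heatr5a and Pik3ap1, Lyz2 to Msn and Mmp19, and Mrc1 to Actr2 and Tirap (r between 0.97 and 0.98). For the remaining resident markers they were Rab6b and Fam117a for Cd163 (r = 0.93 and 0.92), Islr2 and Wasf1 for Lyve1 (both 0.93), Npas4 and Zfp385a for Folr2 (0.97 and 0.92) and Zfp101 and Aagab for Clec10a (0.96 and 0.90). These are the highest values among 12787 genes over only 11 mice, and they are given as a description with no p.

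Other genes of the macrophage program were counted in lists without the members, beside the 21.0% lower and 20% higher of all genes. These lists too were chosen with earlier results of these data known. Of 20 other pan-macrophage and myeloid genes, 17 were lower and 0 higher by limma (also 0 higher at an unadjusted p under 0.05 and by voom), with a median log2 fold change of -0.60. Among them, Tyrobp, a signaling adaptor (-0.75, adjusted p = 0.000103 by limma), Fcer1g (-0.65) and Fcgr3, both of the Fc receptor system (-0.69), had the smallest p. Itgam, which encodes CD11b, fell by 0.63 and Cd14, a receptor for lipopolysaccharide, by 0.56 on the log2 scale.

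Of 19 other resident macrophage genes, 6 were lower and 3 higher, with a median of -0.10, beside 21.0% lower and 20% higher and a median of -0.03 among all genes. These counts were near the shares of all genes. Stab1, Pf4, Sepp1, Gas6 and Hmox1 were among those that were lower. The 3 that rose were Mgl2, Cbr2, a carbonyl reductase (0.55, adjusted p = 0.00473 by limma), and F13a1, a coagulation factor subunit (0.50, adjusted p = 0.00864 by limma). Timd4, a receptor for dying cells, was not called (-0.29, adjusted p = 0.459 by limma). Without IMC mouse 4, 5 genes of this list were higher.

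Of 9 growth factors and receptors, 4 were lower and 0 higher by limma (5 and 0 at an unadjusted p under 0.05, 4 and 0 by voom). Of all genes 21.0% were lower and 20% higher. The ligands of the Csf1r protein were not called, with a log2 fold change of -0.06 for Csf1 (adjusted p = 0.566 by limma) and 0.15 for Il34 (adjusted p = 0.42 by limma). The receptor genes Csf2ra (-0.57, adjusted p = 0.0011 by limma), Csf2rb2 (-0.45) and Csf2rb (-0.35) were lower. Of 13 transcription factors, 9 were lower and 2 higher, with a median of -0.41. Spi1, which encodes PU.1, fell by 0.60 (adjusted p = 0.000177 by limma) and Runx1 by 0.40, and Maf, known for resident macrophages, was at -0.10 (adjusted p = 0.164 by limma). The 2 that were higher, Cebpa and Nr1h3, are also read in fat cells, and only 1 was called with total-read scaling, without a variance trend and in 6 of the 11 fits without a mouse (HFD mice 1 to 4 and IMC mice 3 and 6).

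Lipid-associated macrophage genes, read in cells that clear lipid in obese WAT, had 10 of 14 lower and 1 higher (Acp5), with a median of -0.60. Dcstamp, a cell fusion protein (-1.21), Ctsk, a protease (-0.88), and Cd9, a tetraspanin (-0.70), each had an adjusted p of 3.5e-05 by limma. Trem2, a lipid receptor, fell by 0.79 and Gpnmb by 0.82 on the log2 scale. Of 10 monocyte genes, 2 were lower (Plac8 and Cd52) and 2 higher (Ccr2 and Chil3), shares near those of all genes (21.0% lower and 20% higher). Ccr2, the receptor that brings monocytes from blood, rose by 0.57 (adjusted p = 0.0157 by limma), while Ccl2, which encodes its ligand, was at -0.09 (adjusted p = 0.788 by limma). In the list of alternative activation and interleukin 4 signaling, 4 of 13 were lower, Il33 (-0.68) and Il4ra (-0.31) among them, and 4 higher, Mgl2 and Pparg (0.70) among them, though Pparg is also a gene of fat cells. The median of this list was -0.12, and its counts stand beside the same 21.0% lower and 20% higher of all genes. Mgl2, Chil3, Gas6, Itgax and Cd209a each stand in more than 1 list.

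Markers of other cells were counted beside the 21.0% lower and 20% higher of all genes. The shares of blood endothelium genes that were higher and of mesothelium genes that were lower were near these. All 7 pan-leukocyte genes were lower (median -0.56) and summed to 2763 to 3522 CPM in HFD mice and 1666 to 2670 CPM in IMC mice. The 6 mast cell genes were lower (median -1.38), and all 10 adipocyte genes were higher (median 0.89), with 0.84 for Plin1, 0.87 for Cidec and 1.18 for Adipoq among them. Of 9 dendritic cell genes, 4 were lower and 1 higher (Cd209a), and the defining genes Flt3 and Zbtb46 were not called. Fibroblast genes had 5 of 9 lower and 0 higher (without HFD mouse 3, 3 lower), with 6 lower and 0 higher at an unadjusted p under 0.05 and 5 and 0 by voom. Blood endothelium had 2 of 8 higher and 0 lower by limma (3 and 0 at an unadjusted p under 0.05, 2 and 0 by voom), and between 1 and 4 higher with a mouse left out. Only 1 of 9 T cell genes, 2 of 9 neutrophil genes, 2 of 9 eosinophil genes and 2 of 8 skeletal muscle genes were listed, and 0 of 6 B cell genes. Of these, Cd28 of T cells and Ccr3 of eosinophils were lower, Acta1 of muscle was higher, and S100a8, Csf3r, Siglecf and Actn3 were not called. Of 6 listed mesothelium genes 1 was lower. The part of these cells in the levels of the members was not tested.

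**Figure D5:**
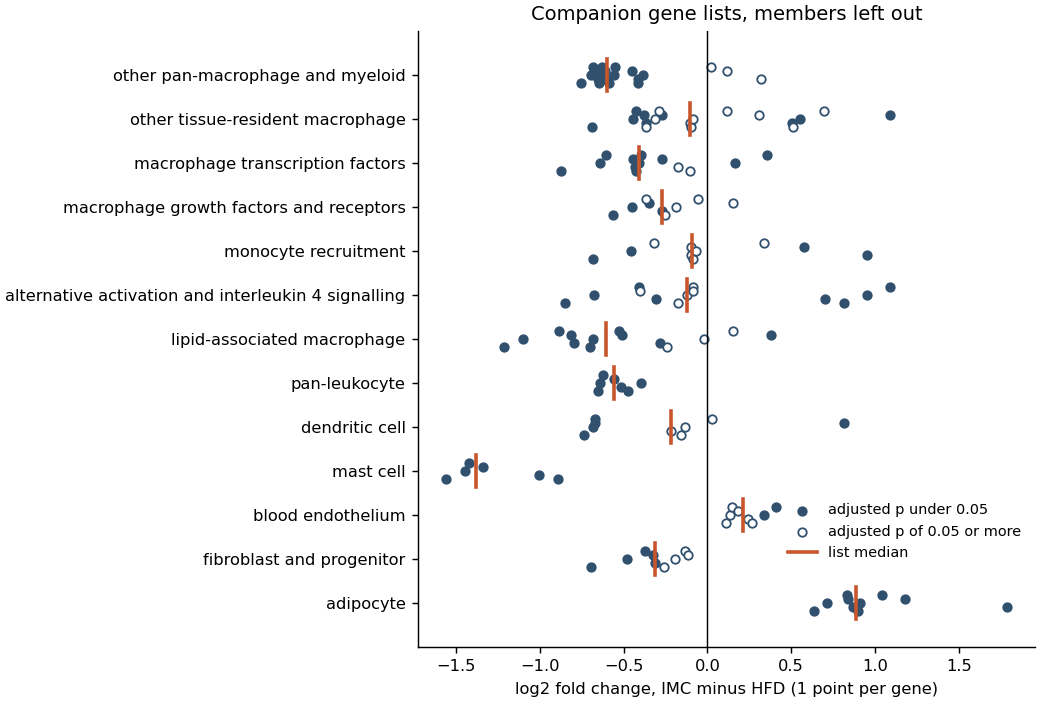
Log2 fold change, IMC minus HFD, of each listed gene (points) in the companion lists, with the list median (bars), members left out. Filled points had an adjusted p under 0.05 by limma: the other pan-macrophage genes have a median of -0.60, the other resident genes one of -0.10 with points on both sides of 0, and the adipocyte genes one of 0.89.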

How the data were processed

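RNA-seq of gonadal WAT from 5 HFD and 6 IMC mice was analysed, grouped by the sample labels. Upstream, the authors used Trim Galore, FastQC and STAR (mm10, UCSC transcripts), took the read counts per gene, left out low transcripts, normalized by upper quartile in edgeR and deposited log2 CPM per mouse. The libraries were made with a directional kit, which keeps the strand, but strand use in counting is not given in the sources used here. The deposited table has further columns from the authors' own comparison (a log2 fold change, a mean log2 CPM, a likelihood-ratio score, a p-value and an FDR), and none of these was used.

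The log2 CPM were compared with limma 3.58.1 (R 4.3.3; lmFit, eBayes with trend) over all 12787 genes with Benjamini-Hochberg adjustment and a threshold of 0.05, without further filter. Log2 CPM are not counts, and no count test such as that of edgeR was run on the reads recovered from them. Ratios subtracted the log2 CPM of Adgre1 in the same mouse and were fitted alike over 12786 genes. Exact permutation tests were two-sided over all 462 splits and give no p below 0.00216. Reads were recovered from the steps of the CPM (100% of values within 0.01 of a whole number after removal of a constant near 0.25 reads) and served for depth, other scalings and voom. Counting error is the only error that depth covers.

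Exon lengths, positions and shared 50-base stretches came from GENCODE annotation of GRCm38, and promoter windows from RefSeq GRCm38.p6. Named genes are the members, their near copies, the 3 genes with the smallest p and the defining first 3 of each list, the 2 genes most like each member, and genes named to complete a count, which were chosen after their values were seen. The members and the 21 lists were chosen with earlier results of these data known. The labels describe each sample as RNA of a mouse and name no batch and no pairing. The limma fit was run on simulated reads in which few genes changed and all genes had the same dispersion, unlike these data. That run did not cover ratios to a gene that itself changed, such as Adgre1. Alternatives were voom, no variance trend, a robust variance prior, other scalings, 2 added reads, a minimum of 0 log2 CPM in every mouse, other denominators and leaving out each mouse. Some genes that this rule would name are not reported here. Figures were made with matplotlib 3.10.9.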

Additional observations from a re-analysis of the deposited data

Results flagged for a closer look

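Within each group, every member and every ratio of a resident marker to Adgre1 was examined for a mouse far from the others by Dixon's 95% limit, 28 groups of values in all, of which chance alone gives about 1 in 20. The limit was passed in 2 of them, both in HFD mice. HFD mouse 1 had a log2 ratio of Cd163 to Adgre1 of -4.91, while the other HFD mice lay between -4.19 and -3.92. HFD mouse 5 had a log2 ratio of Folr2 to Adgre1 of -1.38, and the other HFD mice lay between -1.88 and -1.80.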

How the results depend on the processing

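Each alternative changed 1 choice at a time. The number of members lower in IMC mice was 5 under every scaling, filter, added constant and model tried, and 5 to 6 with a mouse left out, the sixth being Mrc1. No member was called higher except Lyve1 without HFD mouse 2, so that this count ranged from 0 to 1 with a mouse left out. Of the resident markers, 0 were lower relative to Adgre1 with a mouse left out and 1 (Folr2) was lower with Csf1r as the denominator. The number higher relative to Adgre1 was 2 to 4 with a mouse left out. The log2 ratio of Folr2, -0.04 relative to Adgre1, was 0.10 with Lyz2 as the denominator, 0.06 without HFD mouse 5 and 0.06 without IMC mouse 4, a range from -0.08 to 0.06 over the fits that left out a mouse, and none of these was called. The cause was not tested. Of the alternatives for the members' fold changes, 159 kept direction and side of the threshold and 3 newly passed it. In the list of lipid-associated macrophage genes, 2 were higher without a variance trend. No paired analysis was possible because the labels give the mice no numbers shared between groups.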
